A study of Mus musculus with 6 samples.

Results

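Osteocytes, the cells embedded in bone matrix, control how many osteoclasts form. Osteoclasts are the multinucleate cells that resorb bone, and their precursors belong to the monocyte and macrophage lineage. The precursors need CSF1 (M-CSF), which acts through the receptor CSF1R and keeps them alive and dividing. They also need RANKL (gene Tnfsf11), a TNF-family ligand that binds the receptor RANK (Tnfrsf11a) and drives their fusion into osteoclasts. Osteoprotegerin (Tnfrsf11b) is a secreted decoy receptor that captures RANKL, so the RANKL to osteoprotegerin ratio is commonly read as a balance of signal and brake. IL34 is a second ligand of CSF1R with no obvious sequence relation to CSF1.

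The members described here are these 5 genes, Tnfsf11, Tnfrsf11b, Csf1, Il34 and Tnfrsf11a, selected by gene symbol from a table of 39174 genes. All 5 were found, each in 1 row. RNA was sequenced from MLO-Y4, a mouse cell line with osteocyte features, in 6 libraries. For the 3 flow libraries, cells on collagen-coated glass slides received oscillating flow in parallel-plate chambers for 2 h, with 10 dyn/cm² of shear, and then had 2 h in new medium before lysis. The 3 libraries of non-flow control came from cultures handled alongside with a sham treatment, and they had the same 2 h of incubation afterwards. All 6 cultures were of the same line, below confluence, in the same serum-containing medium. A cell line in culture has no osteoclast precursors of its own to respond to these factors. The comparison asks whether mRNA of these regulators differed between flow and non-flow cells. The labels' protocols say that triplicates were taken on separate days but tie no library to a day, so day is a term in none of the fits. In the main fits the spread behind each p-value is that of 3 cultures in a group, and any difference between days is part of it.

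All levels are the authors' deposited FPKM, fragments scaled to transcript length and to library depth, so levels of different genes can be compared per length. The depth read from the steps of low FPKM values was 5760000 to 19230000 reads in flow libraries and 17910000 to 19010000 reads in controls. Flow library 2 was the shallowest and flow library 3 the deepest. The defining osteocyte genes Sost, Mepe and Fgf23 were listed at 0 in all 6 libraries, while Gja1 and Pdpn, also expressed in osteocytes, stood at 443 to 458 and 391 to 417 FPKM in flow cells. Gja1 and Pdpn were at 414 to 503 and 357 to 420 FPKM in controls. Phex, on the same marker list, was expressed at 6.09 ± 1.79 FPKM in flow and 5.10 ± 0.490 FPKM in controls (SD, n = 3 each). Dmp1 was at no more than 0.0354 FPKM in flow and at 0 in controls. Of 12 osteoblast and osteocyte markers 8 were tested and 0 called, and 6 of the 8 log2 fold changes were below 0, with a median of -0.25. Col1a2, a collagen chain of bone matrix, had 96.2, 92.0 and 97.4 FPKM in flow libraries 1 to 3, all below 123.1, 111.1 and 108.9 FPKM in non-flow controls 1 to 3 (log2 fold change -0.26; limma, unadjusted p = 0.0222 and adjusted p = 0.559). Alpl (alkaline phosphatase) had 1.94 ± 0.806 FPKM in flow and 4.29 ± 2.69 FPKM in controls, Bglap (osteocalcin) 7.38 ± 0.892 and 9.03 ± 1.05 FPKM, and Col1a1 132.2 ± 27.0 and 153.6 ± 14.6 FPKM (SD, n = 3 each), all with overlapping groups. The part of these markers in the results below was not tested. Markers of cells that could bring their own RANKL, osteoprotegerin or RANK were low. The 7 macrophage markers in the table summed to 2.89 to 3.68 FPKM in flow libraries and 1.95 to 4.07 FPKM in controls, with Itgam and Aif1 listed at 0 in all 6. Most of that sum was Cd68 (2.24 ± 0.387 FPKM in flow and 2.24 ± 0.943 FPKM in controls) and Lyz2 (0.728 ± 0.221 and 0.507 ± 0.239 FPKM; SD, n = 3 each). The 6 lymphocyte markers summed to 0.125 to 0.268 FPKM in flow libraries and 0.0190 to 0.0723 FPKM in controls, mostly Cd4, which was at 0.125 to 0.240 FPKM in flow and 0 to 0.0723 FPKM in controls. Cd79a was at 0 except for 0.0827 FPKM in flow library 3. Of 9 osteoclast markers 8 had a mean under 1 FPKM, among them Itgb3 at 0.841 ± 0.619 FPKM in flow and 0.950 ± 0.324 FPKM in controls. The exception was Ctsk (cathepsin K), at 189.5 ± 21.7 FPKM in flow and 206.6 ± 11.4 FPKM in controls (SD, n = 3 each).

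Csf1 and Tnfsf11 had their highest level in the same library, flow library 3, and the 250 bases before the RefSeq start of each are shown because they differ in the promoter elements they hold (GRCm38.p6). Tnfsf11 lies on the minus strand of chromosome 14 and its window is chr14:78308044-78308293. Csf1 lies on the minus strand of chromosome 3 and its window is chr3:107760470-107760719. Each is written 5′ to 3′ along the gene, and capitals mark matches to the motifs named below.
Tnfsf11: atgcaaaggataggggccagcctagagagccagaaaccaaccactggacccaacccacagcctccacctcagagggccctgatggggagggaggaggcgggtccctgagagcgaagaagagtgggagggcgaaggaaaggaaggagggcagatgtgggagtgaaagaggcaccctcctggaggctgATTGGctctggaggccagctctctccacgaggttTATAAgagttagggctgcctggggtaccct
Csf1: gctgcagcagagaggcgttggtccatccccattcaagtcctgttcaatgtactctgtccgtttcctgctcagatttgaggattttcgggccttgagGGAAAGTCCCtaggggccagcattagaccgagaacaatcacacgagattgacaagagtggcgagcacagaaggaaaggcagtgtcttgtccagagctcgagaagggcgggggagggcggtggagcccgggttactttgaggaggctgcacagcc
The Tnfsf11 window held TATAA on the gene's strand at -30 to -26, counting the last base before the start as -1, and the CCAAT box on the opposite strand at -64 to -60. The Csf1 window held neither. It held the kappaB motif of the immunoglobulin kappa enhancer, a classical binding motif of NF-kB, on the opposite strand at -154 to -145, and its letters as read on the gene's strand are those in capitals. The Tnfsf11 window did not hold these letters. Of 32851 such windows in the RefSeq table, 5255 held TATAA on the gene's strand, 33.8% held CCAAT on either strand and 0.140% (46 windows) held the kappaB motif on either strand. The AP-1 motif TGANTCA (6.75% of windows) and the CRE motif TGACGTCA (1.55%), searched on both strands, were in neither window. None of these motifs overlapped another. The motifs were chosen after the data had been seen, and a match describes letters, not binding. The RefSeq table held windows for 3 of the 5 members.

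The levels of the 5 transcripts spanned a wide range. Csf1 was among the most abundant mRNAs of these cells, at place 42 to 105 of 39174 genes in each library. It stood 141 to 310 times above Il34 per length within the flow libraries and 222 to 270 times above it within the controls. Il34 and Tnfsf11 came next and were close to each other. Il34 was at 4.90 to 6.21 FPKM in flow and 3.47 to 4.04 FPKM in controls, and Tnfsf11 was at 4.27 to 13.9 and 2.50 to 6.07 FPKM. Il34 was the higher of this pair in 4 of the 6 libraries and Tnfsf11 in flow library 3 and non-flow control 3, so these neighbours had no fixed order. Tnfrsf11b was below Tnfsf11 and Il34 in all 6 libraries, at 1.83 to 2.22 FPKM in flow and 1.08 to 1.98 FPKM in controls. Tnfrsf11a, the receptor RANK, was listed at 0 in all 6.

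Tnfsf11, the RANKL gene (ENSMUSG00000022015, mm10 chromosome 14, 78277445 to 78308043, 1 annotated transcript of 2236 nt), had 4.27, 4.69 and 13.9 FPKM in flow libraries 1 to 3, against 3.40, 2.50 and 6.07 FPKM in non-flow controls 1 to 3. Flow library 3 was the highest and control 3 came second, above flow libraries 1 and 2, so the groups overlapped. The estimated reads behind these values were 96, 55 and 543 in flow and 124, 92 and 235 in controls. The 95% counting interval of flow library 3, 12.7 to 15.1 FPKM (exact Poisson), lay above that of every other library, the next being 5.32 to 6.90 FPKM in control 3. The spread between libraries was therefore wider than the counting error, which is the only error such intervals cover. The mean was 7.61 ± 5.43 FPKM in flow and 3.99 ± 1.86 FPKM in controls (SD, n = 3 each). In limma, the log2 fold change (flow minus control, of FPKM + 1) was 0.68 with SE 0.47, a 95% interval of -0.45 to 1.81 and an adjusted p of 0.607. The comparison had no call for Tnfsf11, and its interval spans more than a doubling as well as a modest decrease. Without flow library 3 the log2 fold change was 0.20, and without non-flow control 3 it was 0.96 (limma, adjusted p = 0.725 and 0.721).

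**Figure D1:**
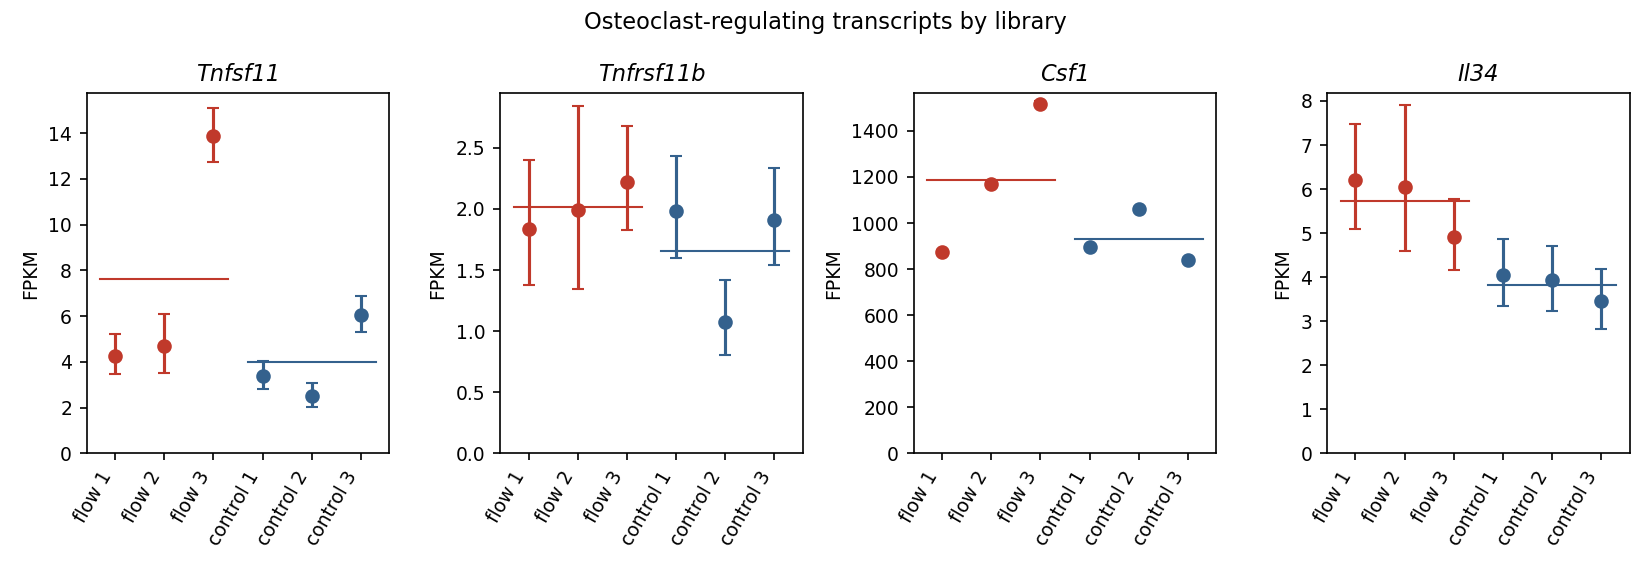
FPKM of Tnfsf11, Tnfrsf11b, Csf1 and Il34 in each of the 6 libraries, flow in red and non-flow control in blue, with 95% Poisson counting intervals (for Csf1 smaller than the points) and group means as lines. Tnfsf11 and Csf1 were highest in flow library 3, and Il34 was the gene whose groups did not overlap.

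Tnfrsf11b, the osteoprotegerin gene (ENSMUSG00000063727, mm10 chromosome 15, 54250619 to 54278484, 1 annotated transcript of 2818 nt), had 1.83, 1.99 and 2.22 FPKM in flow libraries 1 to 3, against 1.98, 1.08 and 1.91 FPKM in non-flow controls 1 to 3. Control 2 was the low value, and the other 5 libraries lay close together with overlapping groups. These values rest on an estimated 53, 30 and 112 reads in flow and 93, 51 and 95 reads in controls. Counting error alone is sizeable here: the interval of flow library 2 was 1.34 to 2.84 FPKM. The mean was 2.01 ± 0.195 FPKM in flow and 1.65 ± 0.502 FPKM in controls (SD, n = 3 each). The log2 fold change was 0.20 with SE 0.21, a 95% interval of -0.32 to 0.72 and an adjusted p of 0.698 (limma). Without control 2 it was 0.03 (limma, adjusted p = 0.949). No difference in osteoprotegerin mRNA was detectable at this depth and number of cultures.

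The Tnfsf11 to Tnfrsf11b ratio, formed within each library and so independent of library scaling, was 2.33, 2.36 and 6.25 in flow libraries 1 to 3. The ratios of non-flow controls 1 to 3 were 1.72, 2.32 and 3.18. RANKL mRNA thus exceeded osteoprotegerin mRNA per length in all 6 libraries, and the groups overlapped, with control 3 above flow libraries 1 and 2. The 95% counting interval (exact binomial, Clopper-Pearson) was 5.08 to 7.71 in flow library 3. In the other 5 libraries the highest upper bound was 4.08, in control 3. The mean ratio was 3.65 ± 2.25 in flow and 2.41 ± 0.737 in controls (SD, n = 3 each). On the log2 scale the ratio averaged 1.70 ± 0.817 in flow and 1.22 ± 0.446 in controls, a difference of 0.48 (two-sided exact permutation test, p = 0.4). With 3 against 3 libraries that test cannot go below 0.1. Without flow library 3 the difference was 0.0082, without flow library 1 or 2 it was 0.72 or 0.71, and without non-flow control 1 it was 0.26.

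**Figure D2:**
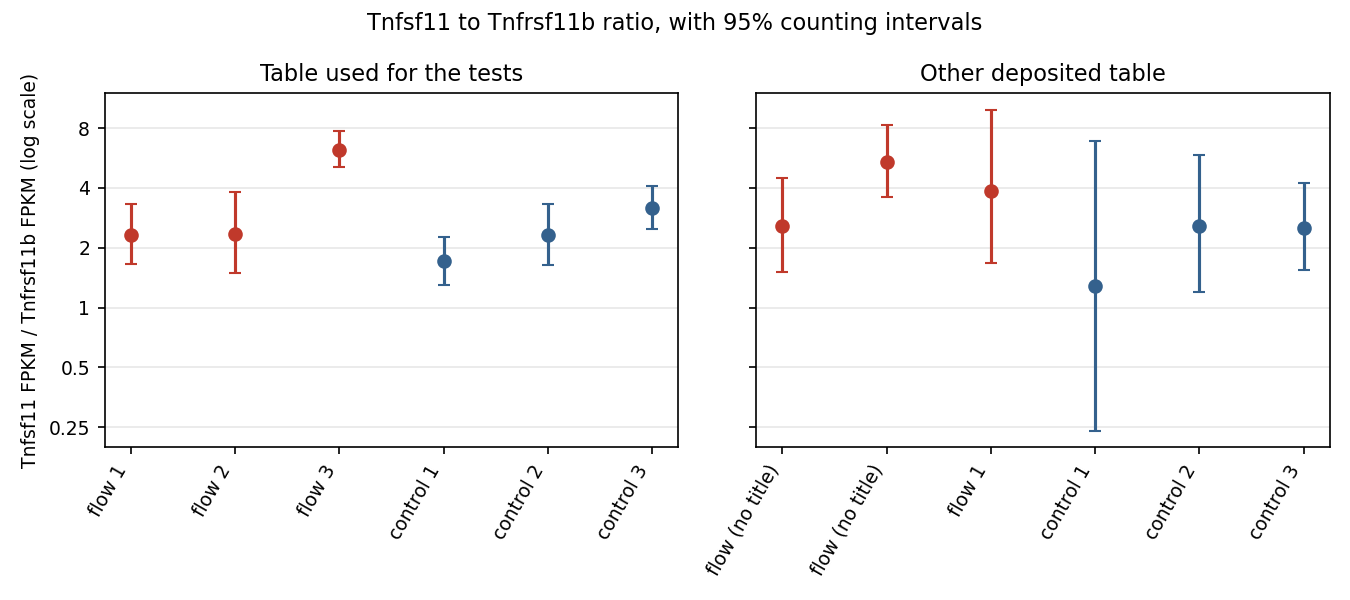
Ratio of Tnfsf11 FPKM to Tnfrsf11b FPKM per library on a log scale with 95% binomial counting intervals, flow in red and non-flow control in blue, in the table used for the tests (left) and in the other deposited table (right). Every ratio was above 1, and flow library 3 stood highest at 6.25 on the left.

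The authors deposited a second FPKM table, in which the headers of 2 flow columns match no library title. Its depth, estimated in the same way from low FPKM values, was lower, at 690000 to 4720000 reads per library. In it the ratio was 3.86 in flow library 1 and 2.57 and 5.40 in the flow columns without a title, against 1.29, 2.57 and 2.52 in non-flow controls 1 to 3. The lowest flow value and the highest control value were both 2.57. The difference on the log2 scale was 0.89, at the smallest p that the exact permutation test can give (p = 0.1), and it was 0.57 without control 1 (p = 0.2). The ratio of flow library 1 rests there on an estimated 24 Tnfsf11 and 8 Tnfrsf11b reads and had a counting interval of 1.68 to 9.93. Control 1 held an estimated 4 reads of each gene there, and its ratio had a counting interval of 0.240 to 6.90.

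Csf1, which encodes M-CSF (ENSMUSG00000014599, mm10 chromosome 3, 107741048 to 107760469), had 876, 1168 and 1519 FPKM in flow libraries 1 to 3, against 896, 1062 and 840 FPKM in non-flow controls 1 to 3. Flow libraries 2 and 3 were above every control, and flow library 1 lay among the controls. The mean was 1188 ± 321.7 FPKM in flow and 932.5 ± 115.1 FPKM in controls (SD, n = 3 each). If every read came from the longest of 7 annotated transcripts (4176 nt), 26737 to 116122 reads stood behind each flow value and 63525 to 76322 behind each control value, so counting error was small beside the spread between libraries. The log2 fold change was 0.32 with SE 0.21, a 95% interval of -0.20 to 0.84 and an adjusted p of 0.599 (limma). Leaving out flow library 1 gave 0.52 and leaving out flow library 3 gave 0.12 (limma, adjusted p = 0.797 and 0.674).

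Il34 (ENSMUSG00000031750, mm10 chromosome 8, 110741829 to 110805924) was the member whose groups did not overlap. It had 6.21, 6.06 and 4.90 FPKM in flow libraries 1 to 3, against 4.04, 3.93 and 3.47 FPKM in non-flow controls 1 to 3. All 3 flow values lay above all 3 control values, which was also true of 851 of the 11957 genes tested (7.12%). The mean was 5.72 ± 0.712 FPKM in flow and 3.81 ± 0.304 FPKM in controls (SD, n = 3 each). The log2 fold change was 0.48 with SE 0.14 and a 95% interval of 0.14 to 0.81. Its unadjusted p was 0.0130, where 3.70% of all genes tested had one under 0.05 with the higher level in flow and 4.82% with the lower, and its adjusted p was 0.559 (limma), so it was not called. On its longest transcript (1796 nt) the values correspond to at most 109, 56 and 151 reads in flow and 116, 113 and 105 reads in controls. The exons of Il34 share 75 bases (3.83%) with the antisense gene Gm15895 and 22 bases (1.12%) with the antisense gene Gm15894. Strand use in the counting is not given in the sources used here, so reads of these pairs cannot be told apart.

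The separation of Il34 was not present in the other deposited table. There Il34 had 6.33 FPKM in flow library 1 and 6.46 and 5.50 FPKM in the flow columns without a title, against 12.3, 6.52 and 5.02 FPKM in non-flow controls 1 to 3. The groups overlapped and the log2 fold change was -0.25 with SE 0.31 (limma, adjusted p = 0.821). Control 1, with an estimated 14 reads, was the highest value. Without it the log2 fold change was 0.07 (limma, adjusted p = 0.937). For flow library 1 the tables gave nearly the same Il34 level, the tested table over the other being 0.980. For controls 1 to 3 that quotient was 0.328, 0.603 and 0.691, so the tables disagree in the controls. Csf1 had quotients of 1.06 in flow library 1 and 1.10 to 1.18 in the controls, and Tnfsf11 had 1.31 and 1.06 to 1.19. Tnfrsf11b had 2.17 in flow library 1, where the tested table gave 1.83 FPKM and the other 0.845 FPKM from an estimated 8 reads, and 0.891 to 1.18 in the controls. With all 6 libraries the direction of Il34 thus differed between the deposited tables, and in the other table it turned above 0 once control 1 was left out. The groups overlapped there with or without control 1.

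**Figure D3:**
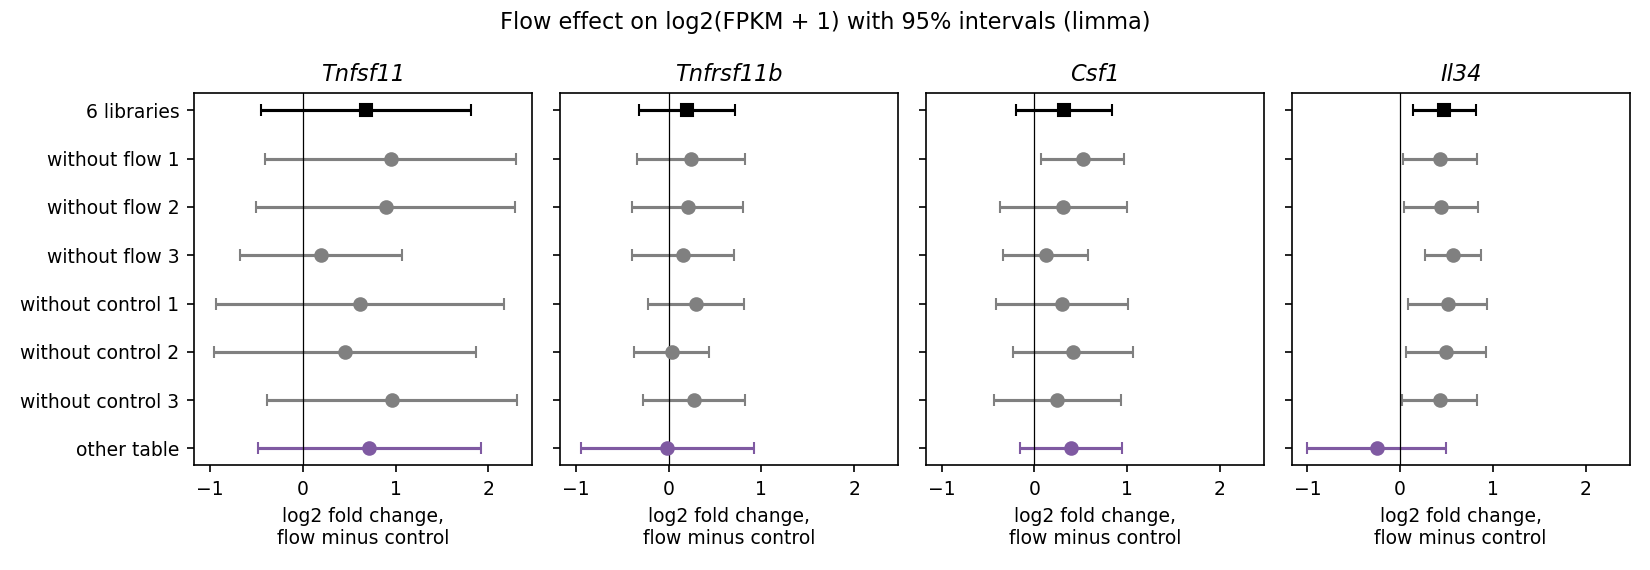
Difference in log2(FPKM + 1), flow less non-flow control, with 95% limma intervals for 4 members, with all 6 libraries (black squares), without each library in turn (grey) and in the other deposited table (purple). Il34 lay at 0.42 to 0.57 without each library but at -0.25 in the other table, and Tnfsf11 lay at 0.20 without flow library 3.

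Tnfrsf11a, the gene of RANK (ENSMUSG00000026321, mm10 chromosome 1, 105780718 to 105847981), was listed at 0 in all 6 libraries of both tables and was not tested. An exact 0 in FPKM can be a failed estimate. At the estimated depths 3 reads on its longest transcript (5027 nt) equal 0.0323 to 0.108 FPKM in flow libraries and 0.0327 to 0.0347 FPKM in controls, which is the level a count of 0 allows. Csf1r, the receptor of CSF1 and IL34, was likewise near the floor, at 0.0402, 0.0385 and 0.0990 FPKM in flow libraries 1 to 3 and 0.0912, 0.0123 and 0.0572 FPKM in non-flow controls 1 to 3. Ptprz1, a phosphatase that is another receptor of IL34, was listed at 0 in all 6. The ligand and decoy genes were thus measured in cells in which transcripts of Tnfrsf11a, Csf1r and Ptprz1 were at or near 0. Another RANKL receptor gene, Lgr4, was expressed and is described below. In RNA from a whole culture, fewer expressing cells and less RNA per cell cannot be told apart.

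Of the 5 members 4 passed the filter of a mean of 1 FPKM, and 0 of these 4 were called at an adjusted p under 0.05 in limma, with 1 (Il34) at an unadjusted p under 0.05. Over the whole table limma called 2 of 11957 genes (0.0167%), so few genes of any kind passed. All 4 log2 fold changes were above 0, with a median of 0.40, beside a median of -0.01 over all genes tested. With all 6 libraries of the other table Tnfrsf11b and Il34 were below 0, and without its control 1 they were above 0.

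Genes whose library-to-library profile was most like that of each member were found by the root mean square difference between log2(FPKM + 1) profiles over the 6 libraries, each less its own mean. The profile of Tnfsf11 had 1 close match. Tnfaip3, which encodes the NF-kB inhibitor A20, differed from it by 0.12 and was the sole gene within 0.2 among the 11957. It had 4.94, 5.38 and 13.2 FPKM in flow libraries 1 to 3, against 2.95, 2.87 and 6.14 FPKM in non-flow controls 1 to 3. Flow library 3 was again the highest and control 3 second. Next were Id3, an inhibitor of helix-loop-helix transcription factors (0.26), Nfkbiz, an atypical nuclear IkB protein (0.27), and Pnrc1, a nuclear receptor coactivator (0.29). Id3 had 20.9, 29.8 and 77.8 FPKM in flow and 18.6, 22.7 and 44.7 FPKM in controls. Nfkbiz had 24.7, 44.4 and 114.2 FPKM in flow and 25.9, 21.4 and 35.2 FPKM in controls. Pnrc1 had 15.6, 18.8 and 33.7 FPKM in flow and 8.40, 10.3 and 25.2 FPKM in controls. None of these 4 was called (limma, adjusted p of 0.560 to 0.736).

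For Csf1 the nearest profiles were those of Llgl2, a cell polarity protein (0.09), Lipt2, a lipoyl transferase (0.10), and the NF-kB subunits Nfkb2 (0.11) and Relb (0.12), with 86 genes within 0.2. Nfkb2 had 52.9, 70.0 and 79.1 FPKM in flow libraries 1 to 3, against 53.2, 61.1 and 56.0 FPKM in non-flow controls 1 to 3. Relb had 26.2, 39.4 and 44.2 FPKM in flow and 28.4, 34.4 and 31.7 FPKM in controls. Llgl2 had 1.83, 2.72 and 3.84 FPKM in flow and 1.54, 1.91 and 1.63 FPKM in controls. Lipt2 had 0.930, 1.42 and 1.74 FPKM in flow and 0.992, 1.13 and 0.683 FPKM in controls. In all of these, as for Csf1, flow libraries 2 and 3 were the highest of the 6. The genes were picked for a profile near that of Csf1, so this shared order is no separate result. The flatter profiles of Tnfrsf11b and Il34 had 1443 and 1820 genes within 0.2, so a near match says little. Nearest were Ankrd13a, Nfib, Ssx2ip and Lonrf1 for Tnfrsf11b, and Rpp30, Dimt1, Cnep1r1 and Fam103a1 for Il34. These likenesses rest on 6 libraries, are what the genes were picked for and carry no test. A link between any member and NF-kB was not tested.

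**Figure D4:**
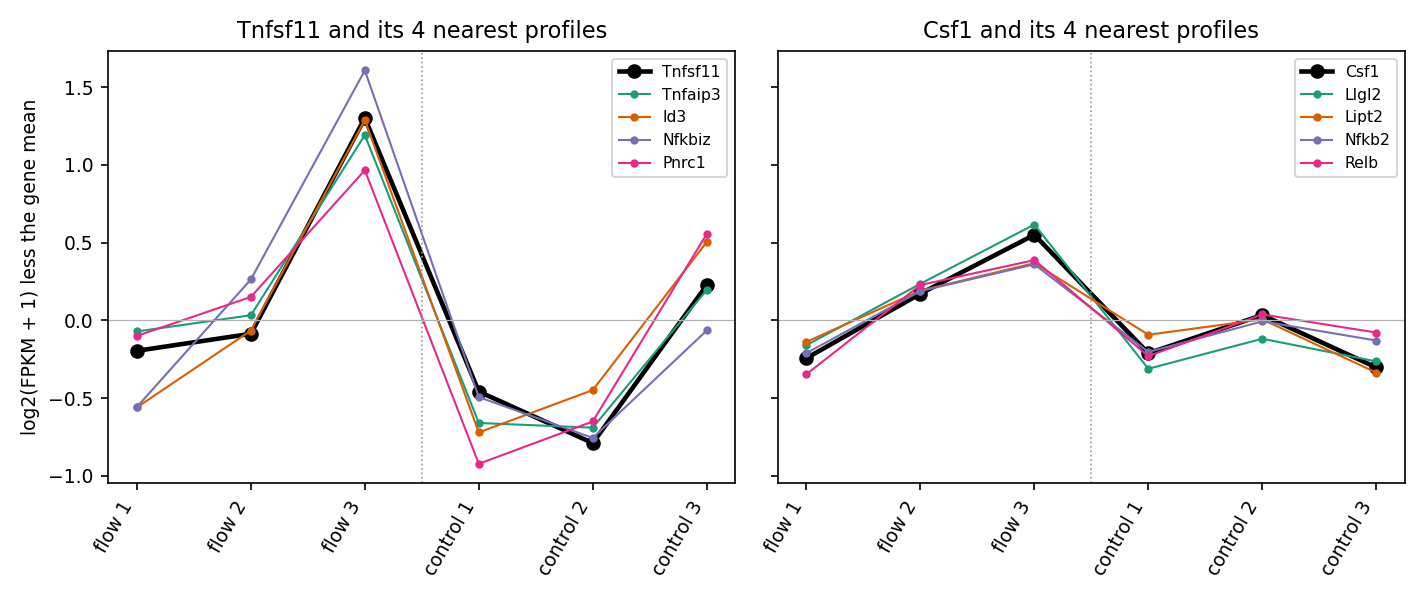
Profiles over the 6 libraries of Tnfsf11 (left) and Csf1 (right) in black with their 4 nearest genes in colour, as log2(FPKM + 1) less each gene's mean, flow libraries left of the dotted line and non-flow controls right of it. The Tnfaip3 line follows Tnfsf11 most closely, with a root mean square difference of 0.12.

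Lists of related genes were read next, by counts and medians. They hold 124 distinct genes with the marker lists included, of which 123 were in the table and 63 had a mean of at least 1 FPKM. Limma called 0 of these 63. In 4 the flow values were all above the controls and in 4 all below, against 7.12% and 8.00% of all genes tested.

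Among other partners of RANKL and osteoprotegerin, 3 of 4 genes were tested. Lgr4, a second RANKL receptor, was expressed at 9.60 ± 1.31 FPKM in flow and 9.74 ± 1.89 FPKM in controls (SD, n = 3 each), with a log2 fold change of -0.01. Tnfsf10 (TRAIL), a death ligand that osteoprotegerin also binds, had 1.54, 2.21 and 1.43 FPKM in flow and 1.84, 3.28 and 2.75 FPKM in controls, with overlapping groups. Its receptor Tnfrsf10b had 9.06, 7.88 and 8.63 FPKM in flow, all above 6.98, 7.57 and 6.56 FPKM in controls (log2 fold change 0.25, SE 0.11; limma, adjusted p = 0.559).

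Of 17 further TNF superfamily ligands 4 had a mean of at least 1 FPKM and 7 were listed at 0 in all 6 libraries. The median log2 fold change of these 4 was -0.37, with 3 below 0 and 1, that of Tnf, above. Per length, Tnfsf11 was below Tnf in all 6 libraries, below Tnfsf12 in 5 of them (all but flow library 3) and above Tnfsf10 in 5 (all but control 2). Tnf, which raises RANKL expression in stromal cells, had 12.3, 20.9 and 44.6 FPKM in flow libraries 1 to 3, against 8.92, 13.5 and 23.9 FPKM in non-flow controls 1 to 3. As with Tnfsf11, flow library 3 was the highest and control 3 second (log2 fold change 0.63, SE 0.52; limma, adjusted p = 0.634). Tnfsf12 (TWEAK) had 5.15, 7.79 and 7.01 FPKM in flow, all below 9.08, 9.54 and 8.86 FPKM in controls (log2 fold change -0.42, SE 0.16; limma, adjusted p = 0.559). Tnfsf9, the ligand of 4-1BB, had 4.94 ± 2.37 FPKM in flow and 6.58 ± 3.14 FPKM in controls (SD, n = 3 each).

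Growth factors and receptors around CSF1R were nearly absent, with 1 of 8 tested. That gene was Sdc1, a syndecan that can bind IL34, at 43.3 ± 11.4 FPKM in flow and 49.3 ± 5.14 FPKM in controls (SD, n = 3 each). Csf3, the gene of G-CSF, was below the filter, at 0, 1.00 and 1.11 FPKM in flow libraries 1 to 3 and 0.230, 0 and 0.217 FPKM in non-flow controls 1 to 3.

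RANKL is made as a membrane protein and can be released by proteases. In this shedding list 5 of 6 genes were tested, and in all 5 the groups overlapped. The matrix metalloprotease Mmp14 had 115.0 ± 26.6 FPKM in flow and 131.2 ± 15.6 FPKM in controls. The disintegrin protease Adam10 had 35.6 ± 5.12 FPKM in flow and 30.3 ± 2.61 FPKM in controls. Adam19 had 6.12 ± 1.63 and 8.41 ± 2.98 FPKM, and the inhibitor Timp2 had 268.6 ± 51.3 and 290.0 ± 61.1 FPKM, in flow and controls in that order (SD, n = 3 each). The median log2 fold change of the list was -0.11. Leaving out non-flow control 2 gave -0.28 and leaving out flow library 2 gave 0.06, the one omission that turned its sign.

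Signal carriers downstream of RANK, most of which serve other receptors too, were expressed although RANK was not detected. Of 17 genes 16 were tested, with a median log2 fold change of 0.03. Sqstm1 (p62), an adaptor that binds TRAF6, was the most abundant, at 1717, 2279 and 2146 FPKM in flow and 1712, 2059 and 1714 FPKM in controls. Tab1, a partner of the kinase TAK1, was at 4.21, 4.58 and 5.13 FPKM in flow, all below 5.78, 5.93 and 5.73 FPKM in controls (log2 fold change -0.28; limma, adjusted p = 0.559). Chuk (IKK alpha) had 28.3 ± 6.10 FPKM in flow and 21.0 ± 1.71 FPKM in controls. Map3k14, the NF-kB-inducing kinase NIK, had 4.54 ± 0.470 and 5.76 ± 1.24 FPKM. Tab2, another TAK1 partner, had 69.5 ± 5.22 FPKM in flow and 67.8 ± 6.27 FPKM in controls (SD, n = 3 each). The groups of Chuk, Map3k14 and Tab2 overlapped.

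Of 26 genes known to raise RANKL in stromal cells, or to carry such signals, 20 were tested and 0 called, with a median log2 fold change of -0.04. The list mixes secreted factors with receptors and transcription factors, with 9 log2 fold changes above 0 and 11 below. Those of the tested secreted factors Lif, Tnf, Il6 and Il11 were 1.06, 0.63, 0.63 and 0.45, all with overlapping groups. The most abundant were receptors, the TNF receptor Tnfrsf1a at 162.1 ± 20.3 FPKM in flow and 173.5 ± 6.99 FPKM in controls and gp130 itself (Il6st) at 112.5 ± 2.64 and 98.3 ± 13.2 FPKM (SD, n = 3 each), with overlapping groups. Stat3, which carries gp130 signals, had 69.8, 55.7 and 69.6 FPKM in flow libraries 1 to 3, all below 84.9, 72.5 and 88.7 FPKM in non-flow controls 1 to 3 (log2 fold change -0.33, SE 0.13; limma, adjusted p = 0.559). Crtc2, a CREB coactivator, had 31.0 ± 8.22 FPKM in flow and 43.6 ± 4.10 FPKM in controls, with overlapping groups. Creb1 itself had 6.42 ± 0.903 FPKM in flow and 5.27 ± 0.260 FPKM in controls, with all flow values above all controls. Rxrb, a partner of the vitamin D receptor, had 16.6 ± 4.75 and 21.7 ± 1.23 FPKM (SD, n = 3 each). The parathyroid hormone receptor Pth1r was at no more than 0.0514 FPKM in flow and 0.182 FPKM in controls. Lif, a gp130 ligand, had the highest log2 fold change of the list (1.06, SE 0.71; limma, adjusted p = 0.601). Pth1r, Lif, Il6 and Il11 are named after their values were seen. Lif had 6.10, 27.3 and 37.0 FPKM in flow libraries 1 to 3, against 4.09, 9.83 and 14.3 FPKM in controls 1 to 3, with flow library 1 below controls 2 and 3.

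Other secreted or membrane modulators of osteoclasts had the highest list median, 0.33, with 7 of 15 genes tested. Of the 7 log2 fold changes 6 were above 0, beside 5772 of all 11957 genes tested. The median was 0.16 without flow library 2, 0.15 in the other table and 0.13 without a filter on low values. Sema3a, a semaphorin that restrains osteoclast formation, had 18.0, 20.6 and 21.5 FPKM in flow libraries 1 to 3, against 16.5, 15.1 and 15.4 FPKM in non-flow controls 1 to 3. All flow values were above all controls (log2 fold change 0.33, SE 0.10; limma, unadjusted p = 0.0170 and adjusted p = 0.559). Tgfb1 was also separated, at 61.2, 61.2 and 58.6 FPKM in flow and 54.6, 55.6 and 54.4 FPKM in controls (log2 fold change 0.13, SE 0.08; limma, adjusted p = 0.565). Ifnb1, the interferon that limits RANKL signalling in osteoclast precursors, had 10.2, 22.9 and 12.3 FPKM in flow and 4.81, 9.82 and 10.4 FPKM in controls, with overlapping groups. Il15 had 4.97 ± 2.94 FPKM in flow and 2.82 ± 0.427 FPKM in controls (SD, n = 3 each). Spp1 (osteopontin), which osteoclasts attach to, was the most abundant gene listed, at 7552 ± 991.5 FPKM in flow and 6955 ± 93.4 FPKM in controls.

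**Figure D5:**
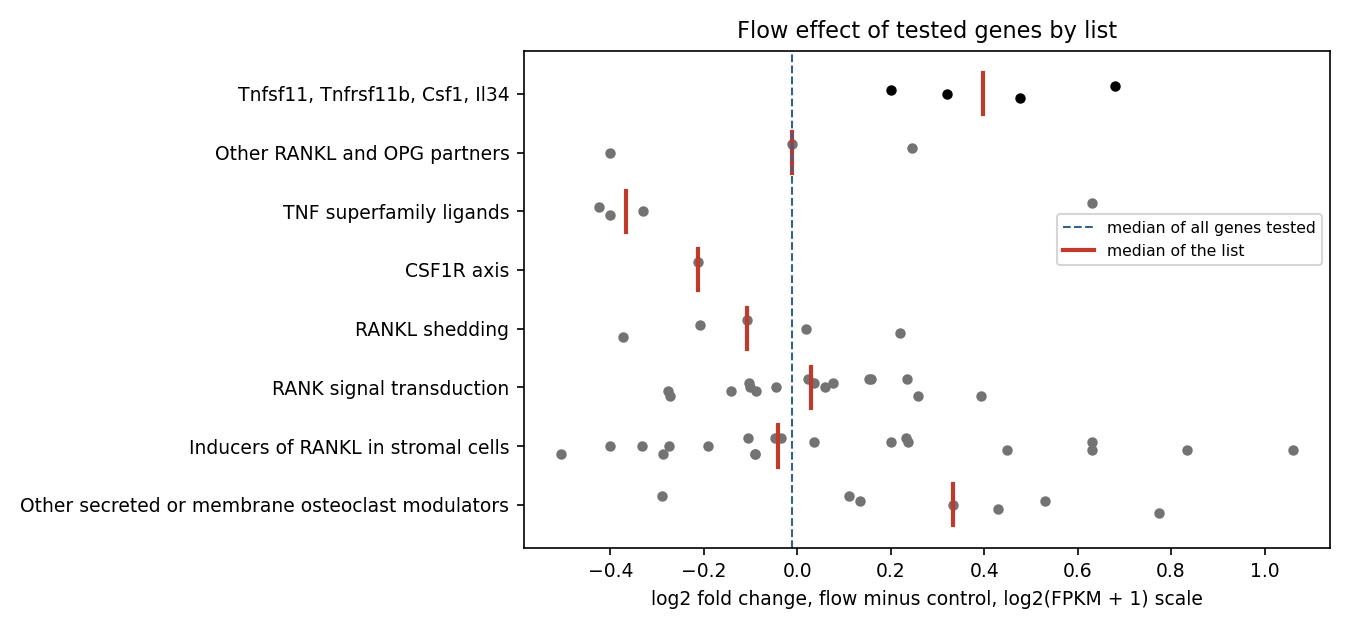
Difference in log2(FPKM + 1), flow less non-flow control, for every tested gene of each list (dots), with the list median in red and the median of all 11957 genes tested (-0.01) as a dashed line. The 4 tested members lie at 0.20 to 0.68 and the shedding, transduction and inducer lists straddle 0.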

How the data were processed

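The authors deposited 2 tables of FPKM per gene and library. Per the submitters' processing notes, Cufflinks 2.2.1, TopHat2 2.0.9 and CASAVA 1.8.2 were used, with build mm10. Not given in the sources used here were annotation, counting settings and strand use. The table whose 6 headers all name a library title was tested. In the other, 2 flow columns match no title and entered as flow libraries of unknown replicate number. There, 22 rows that repeated a gene identifier were dropped in favour of its row of highest mean.

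Limma was run on log2(FPKM + 1), which understates folds of low genes, for genes averaging 1 FPKM or more, with version 3.58.1 in R 4.3.3 (eBayes with trend, two-sided, no covariate, Benjamini-Hochberg over all genes tested, threshold 0.05). The ratio was tested by exact permutation (Python 3.11.15). Depth was estimated from genes with 1 transcript over 800 nt and FPKM of 0.01 to 1, as the value of FPKM times length less 200 nt at which genes gather. Between 74.6% and 82.2% of these genes came out at whole reads, to within 0.02, in the tested table. Reads of a gene follow from its longest transcript in GENCODE M21 (mm10, 1-based coordinates), and the intervals cover counting error only. Fits and depth estimates were run on simulated data as a check of the code. Those data gave all genes the same spread and used the length model of the depth estimate. They therefore do not show accuracy on these libraries. Promoter windows are RefSeq's (GRCm38.p6).

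The members, lists, tests and alternatives were chosen with earlier results of these data known. Named list genes are the up to 4 with the smallest p and the 2 of highest mean FPKM per list, plus Csf1r, Lgr4, Tnfsf10 and Ptprz1, and the 4 nearest profiles of each tested member. Outside that rule stand Lif, Il6, Il11, Pth1r, Phex, Dmp1 and the defining markers listed at 0 (Sost, Mepe, Fgf23, Itgam, Aif1), named after their values were seen. Alternatives covered pseudocount, filter, scaling, the other table, each library left out, and adjacent titles as pairs, and, added after the data were seen, flow library 3 alone and the other table without control 1.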

Additional observations from a re-analysis of the deposited data

How the results depend on the processing

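Tnfsf11 and Csf1 kept a log2 fold change above 0 in 13 alternatives, at 0.20 to 0.96 and 0.12 to 0.52. These leave out the one-library contrast given below and the other table without control 1. The lower filter, the absent filter and the replicate block cannot alter a gene's fold, so they repeat the main value. The log2 difference of the ratio was above 0 in its 11 alternatives (0.0082 to 0.89), which include the other table without control 1. There too the block repeats the main value. In no alternative was a member called (limma, lowest adjusted p = 0.0841, for Il34 without flow library 3). In the other table the log2 fold change turned to -0.0129 for Tnfrsf11b and -0.25 for Il34. With control 1, the shallowest library there, left out, it was 0.12 for Tnfrsf11b and 0.07 for Il34. The cause of the difference between the tables was not tested. Omission of 1 library gave 0.20 to 0.96 for Tnfsf11, 0.03 to 0.29 for Tnfrsf11b, 0.12 to 0.52 for Csf1, 0.42 to 0.57 for Il34 and 0.0082 to 0.72 for the ratio. Chosen after seeing the data, flow library 3 alone, the deepest and already the highest for both genes, gave 1.64 for Tnfsf11 and 0.71 for Csf1, assuming it varies as the controls do, which says nothing about stability. Over all genes limma called 2 genes, against 4 with a pseudocount of 0.1, 4 without a filter and 3 to 14 with 1 library left out. Of list genes 0 were called in every setting planned. With adjacent titles as a replicate block, a pairing the labels do not give, 1 gene was called, the SE of Tnfsf11 was 0.20 in place of 0.47 with a 95% interval of 0.15 to 1.21 (limma, unadjusted p = 0.0239 in place of 0.194, adjusted p = 0.423), flow being above the adjacent control in all 3, and the ratio had an exact p of 0.25, the smallest possible. Deviations from group means correlated at 0.0430, 0.0227 and 0.0644 within the adjacent titles, each flow library correlating best with its neighbour but control 2 with flow library 1 (0.0268). Tnfrsf11a, at 0 throughout, gave no value. Depth limits Tnfrsf11b most, with 30 to 112 reads per library.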
